A study of Mus musculus with 9 samples.

Results

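MYC and 9 genes of nucleolar growth were followed over the cell classes of the mouse spleen and over 3 genotypes of the endoplasmic reticulum stress sensor IRE1. The members were the 10 gene expression rows with the symbols Myc, Ncl, Npm1, Nme1, Mif, Ranbp1, C1qbp, Srm, Nhp2 and Ddx21, of 55385 genes in the count files, and all 10 were found, 1 row each. The MYC protein pairs with MAX on DNA at the E-box, and growth signals such as antigen receptor ligation switch the gene on in lymphocytes. Ribosomes are built in the nucleolus, where ribosomal RNA is transcribed, modified and assembled with ribosomal proteins, and many genes of this work, with others of nucleotide, polyamine and mitochondrial supply, are classic MYC targets in growing lymphocytes. MAX also pairs with the MXD and MXI1 repressors.

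The study asked what the R594C change in IRE1 does to the immune cells. It read transcripts, surface antibody tags and hashtags (CITE-seq) of total splenocytes from homozygous R594C/R594C (2 replicates), heterozygous R594C/+ (4 replicates) and WT mice (4 replicates). A DAPI sort, which removes dead cells, had come before, and transcripts were read from their 3′ ends on the 10x Genomics droplet system, so that levels are compared between cells and not between genes. Each genotype was stained and captured once, so genotype, capture and staining cannot be told apart. The labels name no Cre, transgene or restriction to a cell type, and ages and strain are not stated there. They speak of replicates and not of animals, so the p-values cover the spread of these samples alone, part of which may be technical. By expressed sex-linked genes, R594C/R594C replicate 1 and WT replicates 1, 3 and 4 were male and the other 6 replicates were female, so R594C/R594C and WT each hold more than 1 animal.

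The captures held 17444 barcodes for R594C/R594C, 17980 for R594C/+ and 16027 for WT, with 74538447, 87953814 and 74546390 RNA UMIs (molecular tags that mark original molecules) in the same order. Between 68 and 89 barcodes were shared by each pair of captures, at most 0.51% of the smaller one. After doublet removal 40987 cells remained, and 36910 of them fell in the 15 classes described. Classes were named from marker genes: follicular-like (14010 cells), marginal zone-like (2710), B1-like (1870), transitional-like (1951) and germinal centre-like B cells (259), plasma cell-like cells (878), naive CD4 (3536), activated CD4 (1889), regulatory (1279), naive CD8 (3011), memory-like CD8 (1858) and activated CD8 T-like cells (719), natural killer-like (714) and neutrophil-like cells (293). The marginal zone-like cluster had 6 of 8 of its markers at least 2-fold above the other cells, the germinal centre-like cluster 6 of 6 and the plasma cell-like cluster 7 of 8, while the B1-like cluster had 3 of 8 and as many of the marginal zone list. Of a joint list of activated or memory T cell markers, the memory-like CD8 cluster had 4 of 11 and the activated CD8 cluster 9 of 11. That list does not separate activated from memory cells, so both names are provisional. A further B cell cluster of 1933 cells was left with its number, 7, because none of 6 B cell markers reached 2-fold there, although Cd79a stood at 2184 CPM against 2329 to 2788 CPM in the follicular-like clusters. The 10 members and the growth and ribosomal protein genes were left out of the genes used for clustering, which used other transcripts of the same cells. Proliferation, immediate early and heat shock genes were open to the clustering, so their counts between classes describe the clusters and are no test. Values are RNA UMIs scaled to the total of the class in a replicate (CPM), summed over its cells, with at least 10 cells required, and rest on 28567 (neutrophil-like) to 7155529 UMIs per replicate (follicular-like).

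Promoters are shown for the members in which a MYC-type site was found, because the members are listed together with Myc. Between classes the members often went both ways. RefSeq promoter windows (GRCm38.p6, 250 bases before to 50 after a start site) were at hand for 7 of the 10 members, with 2 windows for Nme1; Myc, Npm1 and Srm had no entry. The E-box CACGTG, which reads the same on both strands, stood in 2 of the 8 member windows, both of Nme1, and in 7.15% of 32851 windows of 27025 genes. The variant CACGCG, or CGCGTG on the other strand, stood in 3 of 8 member windows and in 9.27% of all windows. The member windows held 54.0% to 72.0% G and C, against a median of 52.7% over all windows, and the part of this in the shares was not tested. The looser CANNTG, which includes CACGTG, stood in 5 of 8 and in 72.3%. A match describes letters in the window and not bound protein. The windows of Ncl, Mif and C1qbp held neither CACGTG nor the variant. Capitals mark the matched site in the windows below, which run 5′ to 3′ along the gene. The Nme1 windows lie on the minus strand at chr11:93968223-93968522 and chr11:93967976-93968275 and overlap, with the E-box starting 18 and 29 bases before their start sites. The Nhp2 window lies on the plus strand at chr11:51619523-51619822, with the site from 3 bases after the start. The Ranbp1 window lies on the minus strand at chr16:18248645-18248944, with the site 187 bases before the start. The Ddx21 window lies on the minus strand at chr10:62602249-62602548, with the site 38 bases after the start.
Nme1, upstream start: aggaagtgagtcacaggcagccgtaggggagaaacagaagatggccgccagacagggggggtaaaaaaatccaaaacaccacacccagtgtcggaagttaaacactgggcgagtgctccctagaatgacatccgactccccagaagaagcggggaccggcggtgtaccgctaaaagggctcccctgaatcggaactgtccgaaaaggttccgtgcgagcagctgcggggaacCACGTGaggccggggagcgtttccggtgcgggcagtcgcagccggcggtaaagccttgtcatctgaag
Nme1, downstream start: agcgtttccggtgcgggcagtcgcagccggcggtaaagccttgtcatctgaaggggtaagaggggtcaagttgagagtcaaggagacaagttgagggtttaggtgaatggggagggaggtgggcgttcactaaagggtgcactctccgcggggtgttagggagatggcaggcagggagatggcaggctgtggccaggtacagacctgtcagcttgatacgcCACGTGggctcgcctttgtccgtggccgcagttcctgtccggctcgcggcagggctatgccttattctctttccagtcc
Nhp2: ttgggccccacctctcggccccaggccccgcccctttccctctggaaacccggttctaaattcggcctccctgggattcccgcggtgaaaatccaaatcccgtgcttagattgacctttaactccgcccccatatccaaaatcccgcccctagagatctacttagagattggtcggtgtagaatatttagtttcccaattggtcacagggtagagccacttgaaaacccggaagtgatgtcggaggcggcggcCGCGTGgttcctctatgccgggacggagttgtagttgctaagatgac
Ranbp1: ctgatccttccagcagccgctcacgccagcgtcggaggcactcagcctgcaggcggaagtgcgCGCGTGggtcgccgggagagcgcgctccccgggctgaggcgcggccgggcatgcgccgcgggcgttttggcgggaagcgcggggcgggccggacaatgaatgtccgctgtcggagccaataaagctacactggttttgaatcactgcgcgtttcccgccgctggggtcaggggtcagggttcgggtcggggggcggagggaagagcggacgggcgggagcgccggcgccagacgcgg
Ddx21: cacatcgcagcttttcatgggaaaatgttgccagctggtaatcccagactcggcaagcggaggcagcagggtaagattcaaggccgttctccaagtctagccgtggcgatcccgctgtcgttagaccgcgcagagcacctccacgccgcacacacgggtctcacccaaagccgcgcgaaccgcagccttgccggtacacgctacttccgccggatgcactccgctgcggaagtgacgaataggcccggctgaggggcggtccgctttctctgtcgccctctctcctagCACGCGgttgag

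Myc, the transcription factor (chromosome 15, 61985341 to 61990361), was highest in marginal zone-like B cells and low in plasma cell-like, naive CD4 and activated CD8 T-like cells. In marginal zone-like B cells the 10 replicates ran from 458 to 743 CPM with a median of 628, against 179 to 335 CPM with a median of 263 in follicular-like B cells. The groups did not overlap, and marginal zone-like cells were above the follicular-like cells of the same replicate in 10 of 10. The mean then fell over the classes to 297 ± 76.3 CPM in cluster 7, 254 ± 45.7 in follicular-like, 153 ± 42.1 in B1-like and 142 ± 35.8 CPM in transitional-like B cells (SD, n = 10 each). Germinal centre-like B cells averaged 84.7 ± 43.0 CPM (SD, n = 9, since WT replicate 2 had only 7 such cells). Among T cells it averaged 108 ± 15.02 CPM in memory-like CD8, 61.8 ± 22.4 in regulatory, 40.4 ± 15.3 in naive CD8, 26.2 ± 7.09 in activated CD4, 22.02 ± 3.83 in naive CD4 and 20.2 ± 11.6 CPM in activated CD8 T-like cells (SD, n = 10 each). Natural killer-like cells averaged 159 ± 55.3 CPM and neutrophil-like cells, from 10 UMIs in all, 16.9 ± 13.7 CPM (SD, n = 10 each). Plasma cell-like cells averaged 8.10 ± 3.45 CPM (SD, n = 10) from 128 UMIs in all. Immunoglobulin genes took 62.9% of all UMIs there, which presses their CPM down, against at most 2.15% in the other classes. With immunoglobulin UMIs left out of the totals, a setting added after seeing the data, plasma cell-like cells averaged 21.9 ± 9.67 CPM, beside 22.1 ± 3.84 CPM in naive CD4 and 20.2 ± 11.6 CPM in activated CD8 T-like cells. Of the 14 steps between neighbours in the order of all UMIs, only the step from marginal zone-like B cells to cluster 7 had replicates that did not overlap.

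**Figure D1:**
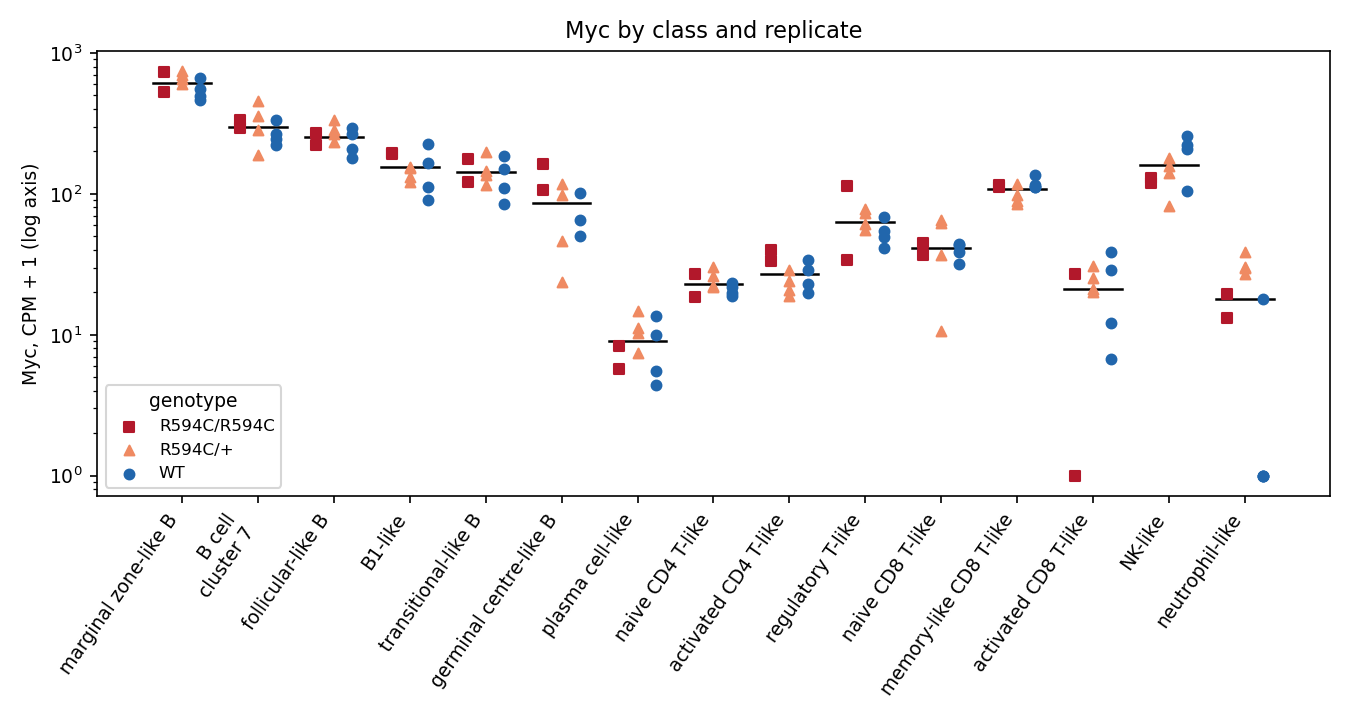
Myc level as CPM + 1 on a log axis in each cell class (across), with 1 point per replicate, genotypes by colour and shape, and lines at the class mean. Marginal zone-like B cells sit at 458 to 743 CPM, above all follicular-like values (179 to 335 CPM), and plasma cell-like cells sit at 3.37 to 13.7 CPM.

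The share of cells with a Myc transcript gave the same order of the B cell classes at equal depth. With each cell thinned to 2000 UMIs, at least 1 Myc UMI was found in 53.5% of marginal zone-like, 33.8% of cluster 7, 27.9% of follicular-like, 18.8% of B1-like and 18.3% of transitional-like B cells (71.6%, 46.1%, 31.1%, 32.3% and 21.3% without thinning, in that order). Neutrophil-like cells, used as the background, had 5.10% (98 of 293 cells were deep enough) and 3.07% without thinning. The thinned shares of naive CD4 (3.94%), activated CD4 (4.72%), activated CD8 T-like (3.14%) and plasma cell-like cells (1.33%) were at or below this background and are not read as expression. Neutrophil-like replicates with at least 10 thinned cells ran from 6.25% to 10.0%. Regulatory (8.79%) and naive CD8 T-like cells (6.47%) lay within that range, so their shares are not clearly above background. Germinal centre-like B cells had 10.4% after thinning and 36.7% before it, since the median cell there held 9587 UMIs. The 3 follicular-like clusters had mean Myc levels of 388, 203 and 172 CPM, and each mean was below the marginal zone-like mean of 613 CPM. Replicates of the highest of these clusters ran from 287.5 to 479.7 CPM and overlapped the marginal zone-like range, which began at 458 CPM.

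Ncl and Npm1 were spread more evenly over the classes. Ncl (chromosome 1, 86344719 to 86359455) encodes nucleolin, which works in ribosomal RNA transcription and processing. Among B, T and natural killer-like cells it ran from 658 ± 51.0 CPM in natural killer-like cells to 1171 ± 299.8 CPM in germinal centre-like B cells and 1492 ± 111 CPM in cluster 7 (SD, n = 10, 9 and 10). Plasma cell-like cells lay lower, at 126 ± 23.0 CPM (337 ± 56.1 CPM without immunoglobulin UMIs), and so did neutrophil-like cells, at 162 ± 94.4 CPM (SD, n = 10 each). Npm1 (chromosome 11, 33152498 to 33164142) encodes nucleophosmin, a nucleolar chaperone of ribosome assembly. It stood at 2054 ± 210.0 CPM in cluster 7, 1903 ± 133 CPM in naive CD8, 1887 ± 118 CPM in memory-like CD8 and 1586 ± 96.3 CPM in naive CD4 T-like cells, against 988 ± 49.3 CPM in follicular-like B cells (SD, n = 10 each). Naive T-like cells thus had high Npm1 beside low Myc, and all 10 of their replicates were above the follicular-like ones in either lineage.

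Among the 15 classes, cluster 7 and germinal centre-like B cells held the highest mean CPM of each of the other 9 members. This held as long as immunoglobulin UMIs were counted. Cluster 7 led for Ncl, Srm and Ddx21, germinal centre-like cells led for Nme1, Mif, Ranbp1, C1qbp and Nhp2, and for Npm1 the means were alike, at 2054 ± 210.0 CPM in cluster 7 and 2053 ± 329 CPM in germinal centre-like cells (SD, n = 10 and 9). Clusters outside these classes could stand higher. Cluster 24 was erythroid and cycling by its markers. It exceeded both for all of these members but Mif (548 CPM) and Ddx21 (205 CPM), with Npm1 at 3325 ± 918.3 CPM (SD, n = 7). Cluster 25, cycling with plasma cell markers, held 647.5 CPM of Nme1 and 139 CPM of Srm. Without immunoglobulin UMIs plasma cell-like cells led the 15 classes for Srm, at 187 ± 38.3 CPM beside 96.1 ± 17.0 CPM in cluster 7 (SD, n = 10 each). They then also led for Nme1, at 610.1 ± 89.1 CPM beside 521 ± 99.7 CPM in germinal centre-like cells (SD, n = 10 and 9), with overlapping replicates. In single cells thinned to 2000 UMIs the 10 members together gave a median of 7 UMIs in cluster 7 and 7 in germinal centre-like cells, against 5 in follicular-like B cells. The 90th percentile was 24 UMIs in cluster 7, against 17 in germinal centre-like and 10 in follicular-like cells, so cluster 7 mixed cells with ordinary and very high sums. Cluster 7 was led by Il4i1, Timm10, Chchd4 and Nop16, of which Nop16 is itself a nucleolar gene, and it was not tested against other classes.

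Over the means of the 13 B, plasma and T cell classes, the other 9 members correlated with one another with a median Pearson r of 0.76, and with Myc at a median of 0.51. Without plasma cell-like cells (12 classes) the medians were 0.80 and 0.46. These are descriptions over classes that share libraries and replicates. Srm was the least alike over the 13 classes, with r of -0.17 with Ddx21, -0.05 with Ncl and 0.03 with Npm1. Without plasma cell-like cells the lowest pair was Ranbp1 with Ddx21 (r = 0.10), and Srm with Ddx21 stood at 0.51. Of 8618 genes with at least 20 CPM in some class, the 5 most like Myc over the 15 classes were Acsf2 (r = 0.92), Ganc (0.91), Slc9a8 (0.89), Snx5 (0.89) and Ptp4a3 (0.88). Those most like the mean of the other 9 members were Ctps (0.98), the CTP synthase, Gar1 (0.98), a partner of NHP2 in H/ACA particles, Mthfd1 (0.98) of folate metabolism, Wdr43 (0.98) of small ribosomal subunit assembly and Tomm5 (0.98) of mitochondrial import. By Spearman rank, 1 of the 5 for Myc and 2 of the 5 for the others were again among the top 5.

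**Figure D2:**
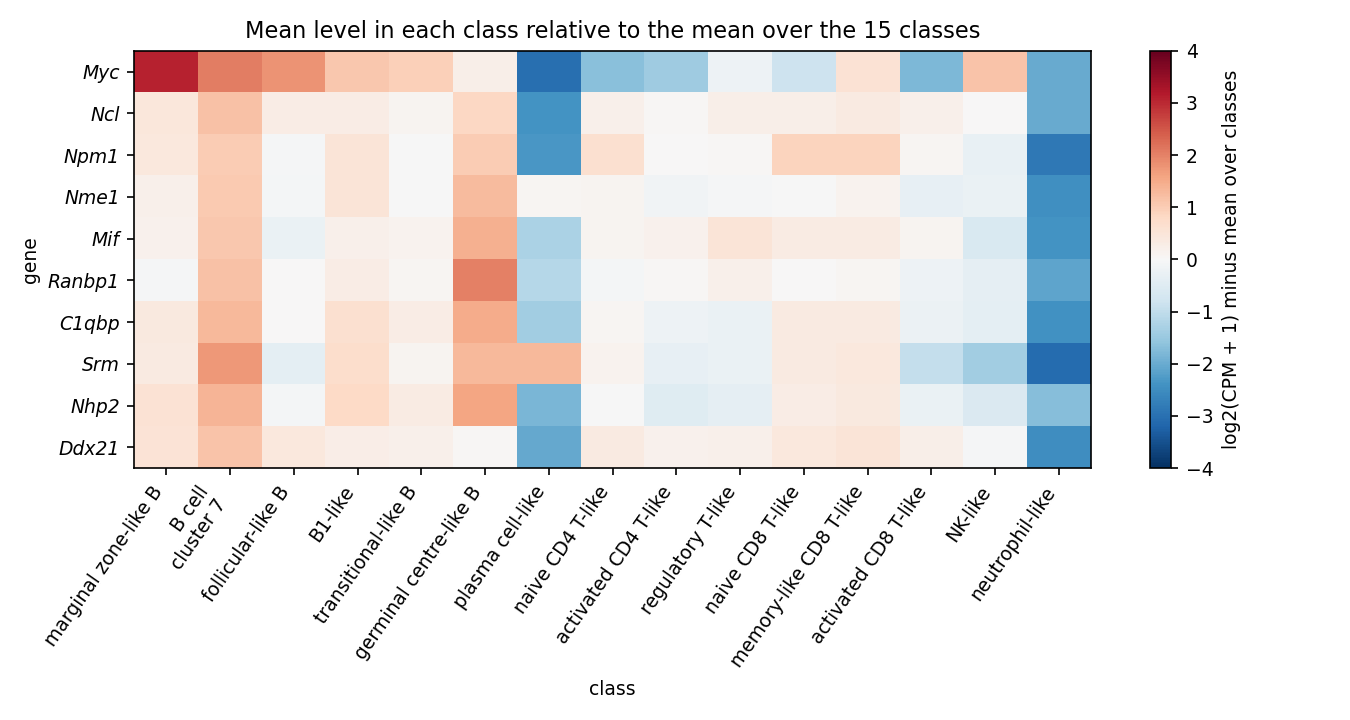
Level of each member (rows) in each cell class (columns) as log2(CPM + 1) minus the mean over the 15 classes, so that colours compare classes within a gene (red higher, blue lower). Cluster 7 and germinal centre-like B cells are red for most members, Myc (top row) is reddest in marginal zone-like B cells, at 613 CPM, and plasma cell-like values are pressed down by the 62.9% of UMIs from immunoglobulin genes.

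Classes were compared with edgeR's quasi-likelihood test on the summed counts, with each replicate as a block and Benjamini-Hochberg adjustment over all genes tested at 0.05, and log2 folds are first class minus second with their SE. TMM scaling was used. Ratios of mean CPM differed from it by a median over the members of -0.10 to 0.27 on the log2 scale, and by -1.39 in plasma cell-like cells, and 5 of 86 called tests had the opposite sign in CPM. In marginal zone-like minus follicular-like B cells 9 of 10 members rose and none fell, where 48.7% of all genes were called in either direction. The members' median log2 fold was 0.48, against -0.00056 over all genes. Myc rose by 1.34 ± 0.03 (adjusted p = 3.31e-52), Srm, the spermidine synthase, by 0.82 ± 0.09, Nhp2, a core protein of H/ACA particles that modify ribosomal RNA, by 0.71 ± 0.05 and Npm1 by 0.54 ± 0.02. Mif, a cytokine, rose by 0.49, C1qbp of the mitochondrial matrix by 0.46, Nme1, a nucleoside diphosphate kinase, by 0.37, Ncl by 0.21 and Ddx21, a nucleolar RNA helicase, by 0.19. Ranbp1, a partner of the RAN GTPase, did not pass (-0.02 ± 0.05, adjusted p = 0.73).

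The snoRNP, subunit assembly, mitochondrial and nucleotide lists held more rises than falls in marginal zone-like cells, and the RAN cycle list did not. Of 12 snoRNP genes tested (Nhp2 among them) 9 rose and none fell, with Dkc1 at 0.53 and Naf1 at 0.82. Of 34 genes of ribosomal subunit assembly 20 rose and 2 fell, with Gnl3 at 0.86 and Rrp1b at 0.89. Of 14 mitochondrial chaperone and import genes (C1qbp among them) 11 rose and none fell, and of 19 nucleotide and polyamine genes (Nme1 and Srm among them) 12 rose and 1 fell, led by Odc1, which makes putrescine, at 1.52 ± 0.05. Of 11 RAN cycle and nuclear transport genes 2 rose and 2 fell, with a median of -0.02. All 24 ribosomal protein genes rose. In the MYC network (Myc among them) 4 of 9 rose and 2 fell, with the MAX partner Mxd4 at 1.31 and Mxi1 at -0.68. Immediate early and heat shock genes, which also move with cell handling, were lower in 12 and higher in 5 of 20, and summed to a mean of 13840 CPM in marginal zone-like against 18160 CPM in follicular-like cells; their part in the result was not tested.

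In B1-like cells Myc fell while most of the other members rose, and in transitional-like cells Myc fell and the other members went both ways. In B1-like minus follicular-like cells 7 members rose and 2 fell (53.2% of all genes called), with a median of 0.48, while Myc fell by 0.75 ± 0.13 (adjusted p = 8.49e-04) and was lower in 10 of 10 replicates. Srm rose by 1.09 ± 0.11, Nhp2 by 0.85 ± 0.06, C1qbp by 0.61 ± 0.07 and Nme1 by 0.58 ± 0.06. Ddx21 fell by 0.16 ± 0.06 (adjusted p = 0.014), a call lost without R594C/+ replicate 1 (0.059) or 4 (0.075). Of the lists, 15 of 34 subunit assembly genes and 6 of 12 snoRNP genes rose, with none and 1 falling. The subunit assembly genes were called less often than the 53.2% of all genes. In transitional-like minus follicular-like cells 3 members rose and 4 fell (32.6% of all genes called). Myc fell by 0.94 ± 0.06 (adjusted p = 2.05e-35), Ncl by 0.31 ± 0.03 (adjusted p = 5.57e-16, lower in 10 of 10 replicates) and Ddx21 by 0.38 ± 0.06, while Mif rose by 0.21 ± 0.05. Npm1 fell by 0.12 ± 0.03 on the TMM scale, though its mean CPM was 0.03 higher on the log2 scale, and the rises of Srm (0.37 ± 0.14) and Nhp2 (0.24 ± 0.08) were lost without single replicates. Srm was lost without R594C/R594C replicate 1 or 2, R594C/+ replicate 1 or WT replicate 4, and Nhp2 without R594C/R594C replicate 1 or R594C/+ replicate 1, with adjusted p of 0.059 to 0.15 over both. Of the 12 snoRNP genes 3 rose and 3 fell there, and of 34 subunit assembly genes 4 rose and 4 fell.

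In germinal centre-like B cells Myc fell while 8 of the other members rose. Germinal centres are where B cells divide and mutate their receptors, and all 20 proliferation genes, which the clustering could use, were higher there, with Mki67 at 7.08. Ranbp1 had 437 to 686 CPM with a median of 555 in the 9 replicates of germinal centre-like cells, against 125 to 159 CPM with a median of 146 in follicular-like cells. All germinal centre-like values lay above all follicular-like ones. Against follicular-like cells 8 members rose and 2 fell (66.2% of all genes called), with a median of 1.16 against -0.04 over all genes. Ranbp1 rose by 1.73 ± 0.07 (adjusted p = 1.23e-38), Srm by 1.54 ± 0.16, Mif by 1.40 ± 0.18, Nhp2 by 1.39 ± 0.12, C1qbp by 1.22 ± 0.18, Nme1 by 1.10 ± 0.08, Npm1 by 0.77 ± 0.06 and Ncl by 0.27 ± 0.07. Myc fell by 1.88 ± 0.19 (adjusted p = 3.45e-06), in 9 of 9 replicates, and Ddx21 by 0.64 ± 0.09.

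The sums weight large cells more than small ones. With every cell thinned to 2000 UMIs, 5 members rose in germinal centre-like cells: Ranbp1 (1.18), Nme1 (0.65), Mif (0.65), Nhp2 (0.54) and C1qbp (0.48). Ncl then fell by 0.28 (adjusted p = 0.0092), Npm1 (0.14, adjusted p = 0.16) and Srm (0.74, adjusted p = 0.10) did not pass, and Myc and Ddx21 were again lower. WT replicate 1 was the lowest germinal centre-like sample for Srm (6.16 CPM), Mif (190.9) and C1qbp (55.4), and leaving it out kept 8 rises and 2 falls. Among the lists 11 of 12 snoRNP genes rose and none fell, with Gar1 at 1.18, and 15 of 20 nucleotide and polyamine genes rose and 1 fell, with the one-carbon enzymes Mthfd2 at 2.73 ± 0.14 and Shmt2 at 2.18. Of 11 genes of the RAN cycle (Ranbp1 among them) 8 rose and 1 fell, with the GTPase Ran itself at 1.99 and its exchange factor Rcc1 at 3.31. In the MYC network (Myc among them) 6 of 10 fell and 2 rose: Mxd3 rose by 5.08 ± 0.42, Max by 0.46, and Mxd1 fell by 2.10. Ribosomal protein genes fell in 20 and rose in 3 of 24.

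**Figure D3:**
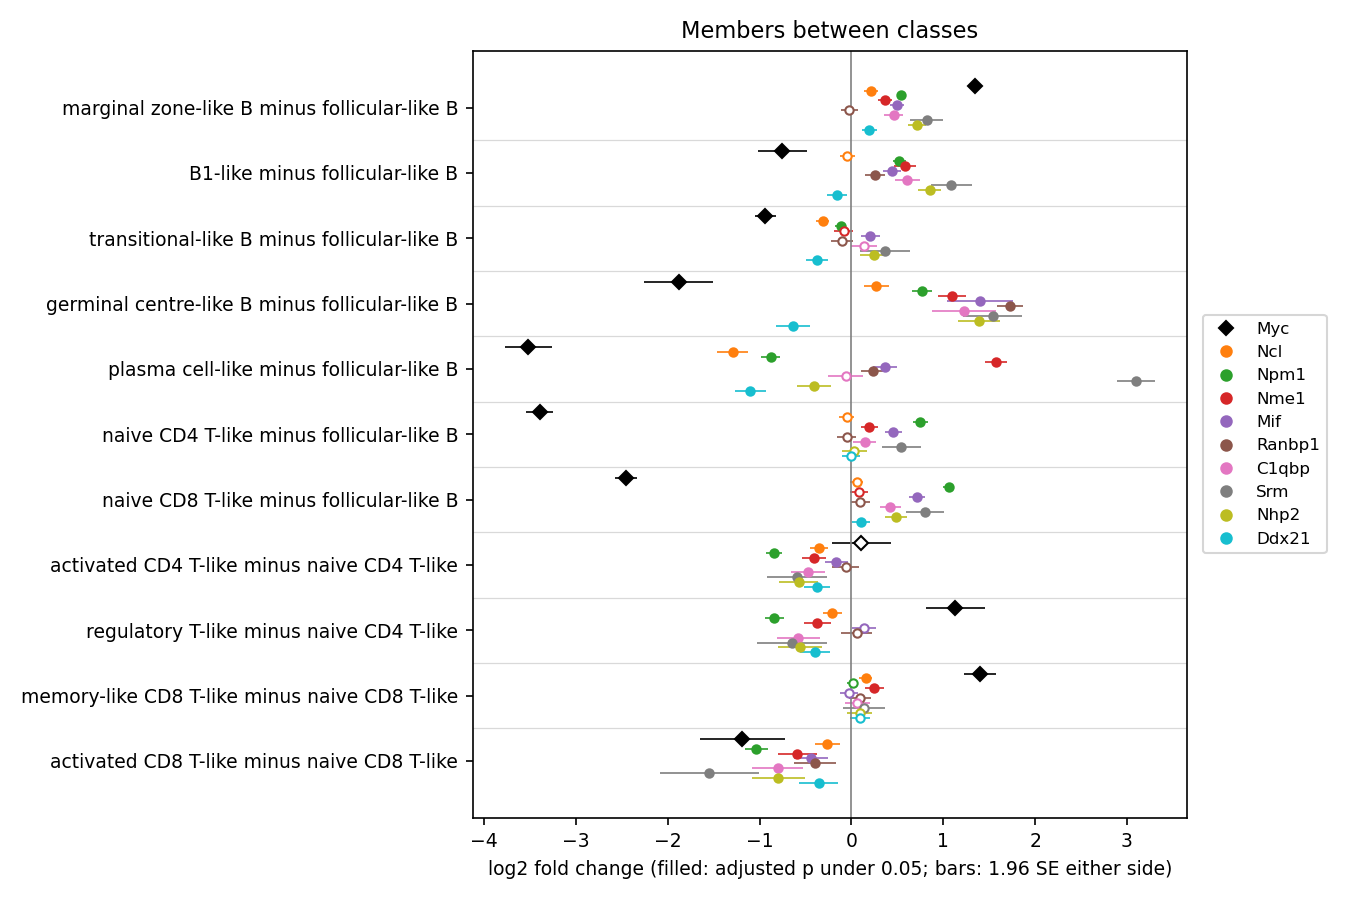
Log2 fold of each member in 11 class comparisons (rows; edgeR, first class minus second, on the horizontal axis; filled symbols passed an adjusted p of 0.05, and bars show 95% intervals). Myc lies at 1.34 in marginal zone-like and at -1.88 in germinal centre-like minus follicular-like B cells, while Srm lies at 0.82 and 1.54.

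Plasma cell-like cells secrete antibody. Leaving immunoglobulin UMIs out gave the same direction and call for all 110 member tests. In plasma cell-like minus follicular-like cells 4 members rose and 5 fell (73.7% of all genes called). Srm had 47.8 to 92.6 CPM with a median of 68.2 in plasma cell-like cells, against 16.9 to 27.5 CPM with a median of 20.0 in follicular-like cells. The groups did not overlap even on this scale, and Srm rose by 3.10 ± 0.11 (adjusted p = 2.18e-21). Nme1 rose by 1.57 ± 0.06 (adjusted p = 6.39e-27; higher CPM in 8 of 10 replicates). Mif rose by 0.36 ± 0.07 and Ranbp1 by 0.24 ± 0.07 on the TMM scale, where the ratios of mean CPM were lower by log2 values of -1.02 and -1.17, and both turned with cells thinned (-0.23 and -0.03, adjusted p = 0.16 and 0.87). The Ranbp1 call was also lost without the filter on low counts (0.08, adjusted p = 0.45). Without immunoglobulin UMIs Mif averaged 246 ± 44.2 CPM in plasma cell-like and 189 ± 12.9 CPM in follicular-like cells (SD, n = 10 each).

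Myc fell in plasma cell-like cells by 3.52 ± 0.13 (adjusted p = 2.55e-19), Ncl by 1.29 ± 0.09, Ddx21 by 1.10 ± 0.09, Npm1 by 0.88 ± 0.05 and Nhp2 by 0.41 ± 0.10, and C1qbp did not pass (-0.06 ± 0.10, adjusted p = 0.56). Since the thinned share of these cells with Myc (1.33%) was below background, the size of the Myc fall is uncertain. Odc1, which makes the putrescine that SRM uses, rose by 3.34 ± 0.07, and the one-carbon enzymes Mthfd2 and Shmt2 by 2.29 and 2.08, among 7 rises and 5 falls in 19 nucleotide and polyamine genes. Of 11 translation initiation genes 9 rose and none fell, with Eif4ebp1, an inhibitor of cap-dependent initiation, at 2.44. Of all genes tested 34% rose and 39.7% fell in this comparison. Beside that, 8 of 12 snoRNP genes fell and 1 rose (Nop56 at -1.17, Fbl at -1.05), 16 of 34 subunit assembly genes fell and 6 rose, and 23 of 24 ribosomal protein genes fell and 1 rose. The subunit assembly genes and the nucleotide and polyamine genes were called less often than the 73.7% of all genes, and the snoRNP genes about as often. The MAX partners Mxd4 (1.95) and Mxi1 (1.51) rose and Max fell by 1.09.

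Naive T-like cells were set against follicular-like B cells. In naive CD4 minus follicular-like cells 5 members rose and 1 fell, a share no larger than the 65.6% of all genes called. The members' median log2 fold was 0.09, against -0.03 over all genes. Myc fell by 3.39 ± 0.07 (adjusted p = 1.09e-104), while Npm1 rose by 0.75 ± 0.04, Srm by 0.54 ± 0.11, Mif by 0.46 ± 0.05, Nme1 by 0.19 ± 0.05 and C1qbp by 0.14 ± 0.06. Since the thinned share of naive CD4 cells with Myc (3.94%) was at background, the size of the Myc fall is uncertain. The C1qbp call was lost without R594C/R594C replicate 2, WT replicate 3 or WT replicate 4 (adjusted p = 0.054 to 0.079), and with cells thinned C1qbp and Nme1 did not pass (adjusted p = 0.56 and 0.16). In naive CD8 minus follicular-like cells 6 rose and 1 fell, about the share of all genes called (66.8%). The members' median log2 fold was 0.27, against -0.01 over all genes. Myc fell by 2.46 ± 0.06, Npm1 rose by 1.06 ± 0.03 (adjusted p = 1.85e-90), Srm by 0.80, Mif by 0.72, Nhp2 by 0.48 and C1qbp by 0.43, all 24 ribosomal protein genes rose, and so did 20 of 34 subunit assembly genes with 1 falling. The naive CD8 share of cells with Myc (6.47%) lay within the range of neutrophil-like replicates, so the size of this Myc fall is uncertain too. The subunit assembly genes were called less often than the 66.8% of all genes. Ddx21 rose by 0.10 ± 0.05, a call lost without R594C/+ replicate 2 or 3 or WT replicate 2 or 4 (adjusted p = 0.090 to 0.12) and under 4 other settings.

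Among CD4 T-like cells most members were lower in the activated and regulatory classes than in the naive one, and Myc was not among them. In activated CD4 minus naive CD4 T-like cells none rose and 8 fell (48.9% of all genes called). Npm1 had 892 to 1193 CPM with a median of 1015 in activated CD4, against 1449 to 1759 CPM with a median of 1601 in naive CD4 T-like cells. The groups did not overlap, and it fell by 0.84 ± 0.04 (adjusted p = 1.08e-31). Srm fell by 0.60 ± 0.17, Nhp2 by 0.57 ± 0.11, C1qbp by 0.47 ± 0.09 and Nme1 by 0.41 ± 0.07. Mif fell by 0.17 ± 0.06 on the TMM scale while its mean CPM was 0.05 higher on the log2 scale, and this call was lost without R594C/+ replicate 3 or WT replicate 2, 3 or 4 (adjusted p = 0.050 to 0.12). Myc did not pass (0.11 ± 0.16, adjusted p = 0.61). In regulatory minus naive CD4 T-like cells 1 rose and 7 fell (49.6% of all genes called). Myc rose by 1.13 ± 0.16 (adjusted p = 4.56e-09), in 10 of 10 replicates, with Odc1 at 1.90 and Mxi1 at 1.41, while Npm1 fell by 0.84 ± 0.05 and Srm by 0.65 ± 0.19. The thinned share of cells with Myc was 8.79% in regulatory T-like cells, within the range of neutrophil-like replicates (6.25% to 10.0%). It was at background in naive CD4 (3.94%). The size of the Myc rise is therefore uncertain. Mif (0.13, adjusted p = 0.090) and Ranbp1 (0.06, adjusted p = 0.61) did not pass. Ncl fell by 0.21 ± 0.05 on the TMM scale, and its mean CPM was 0.04 higher on the log2 scale.

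Among CD8 T-like cells Myc was higher in the memory-like class than in the naive one, and its counts were lower in the activated class. After thinning, 15.9% of memory-like, 6.47% of naive and 3.14% of activated cells had a Myc UMI, against the background of 5.10%. The activated class is thus not read as expressing Myc, and the size of its fall is uncertain. The naive share lay within the range of neutrophil-like replicates (6.25% to 10.0%), so the size of the memory-like rise is uncertain too. In memory-like CD8, Myc ran from 84.1 to 135 CPM with a median of 110.4, against 9.66 to 64.4 CPM with a median of 40.3 in naive CD8 T-like cells. No replicate overlapped, and Myc rose by 1.40 ± 0.09 (adjusted p = 1.89e-28). Nme1 rose by 0.25 ± 0.05 and Ncl by 0.15 ± 0.04, so that 3 of 10 members rose and none fell, a share no larger than the 34.4% of all genes called, and of the 12 snoRNP genes 1 rose. In activated CD8 minus naive CD8 T-like cells all 10 members fell (34.9% of all genes called), with a median of -0.69 against 0.0065 over all genes. Srm fell by 1.55 ± 0.27, Myc by 1.19 ± 0.24 (adjusted p = 1.36e-05), Npm1 by 1.03 ± 0.06, C1qbp by 0.80 ± 0.14 and Nhp2 by 0.80 ± 0.15. The lists fell with them: 8 of 12 snoRNP and 16 of 32 subunit assembly genes fell and none rose, with Dkc1 at -1.15 and Tsr1 at -1.64, and 24 of 24 ribosomal protein genes fell. Odc1 rose by 0.92. Immediate early and heat shock genes were higher in 17 of 20 in activated CD4, 20 of 20 in memory-like CD8 and 17 of 20 in activated CD8 T-like cells against their naive classes; their part in these results was not tested.

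Cells with a Myc UMI were set against cells without one in the same class and replicate, by the summed UMIs of the other 9 members after thinning to 2000 UMIs. In follicular-like B cells the cells with Myc held 0.38 more UMIs (SD 0.35 over 10 replicates, higher in 9 of 10; exact two-sided sign-flip test p = 0.0039, adjusted over 5 classes 0.020). In marginal zone-like B cells the difference was 0.43 (SD 0.48, higher in 7 of 10; exact p = 0.025, adjusted 0.042), and in cluster 7 it was 1.71 (SD 1.64, higher in 8 of 10; exact p = 0.016, adjusted 0.039). B1-like (0.41, SD 0.66, higher in 6 of 10; exact p = 0.088, adjusted 0.11) and transitional-like B cells (0.12, SD 1.014, higher in 5 of 10; exact p = 0.70, adjusted 0.70) did not pass. The smallest p this test can give is 0.0020. The follicular-like class pools 3 clusters that differ in Myc, so its cells were also compared within clusters, a setting added after seeing the data. The difference was then 0.42 (SD 0.32, higher in 10 of 10; exact p = 0.0020, adjusted 0.0098), and the other classes are 1 cluster each.

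The genotypes were compared within 12 classes, in 118 member tests for each pair of genotypes, with edgeR over all 10 replicates. No member passed in R594C/R594C minus WT, in R594C/+ minus WT or in R594C/R594C minus R594C/+, where 0.128%, 0.246% and 0.204% of all gene tests were called. At an unadjusted p under 0.05 there were 7, 11 and 15 member tests (5.93%, 9.32% and 12.7%, against 5.77%, 5.96% and 6.59% of all gene tests). DESeq2 called none either, with 2, 5 and 7 at an unadjusted p under 0.05. The median absolute log2 fold of the members was 0.13, 0.089 and 0.14, against 0.15, 0.14 and 0.16 over all genes. In R594C/R594C minus WT 13 of 118 member tests had replicates that did not overlap (background 12.7%), in R594C/+ minus WT 5 (background 3.72%) and in R594C/R594C minus R594C/+ 21 (background 15%). None of the growth lists had a called gene in any of these comparisons, among them 136 snoRNP, 364 subunit assembly and 205 nucleotide and polyamine tests per pair. On counts simulated for R594C/R594C minus WT with 2-fold changes, 82.7% of 196 changed genes were recovered in follicular-like, 73.2% of 198 in marginal zone-like, 61.5% of 192 in regulatory T-like and 29.6% of 196 in plasma cell-like cells, and smaller changes were not simulated.

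**Figure D4:**
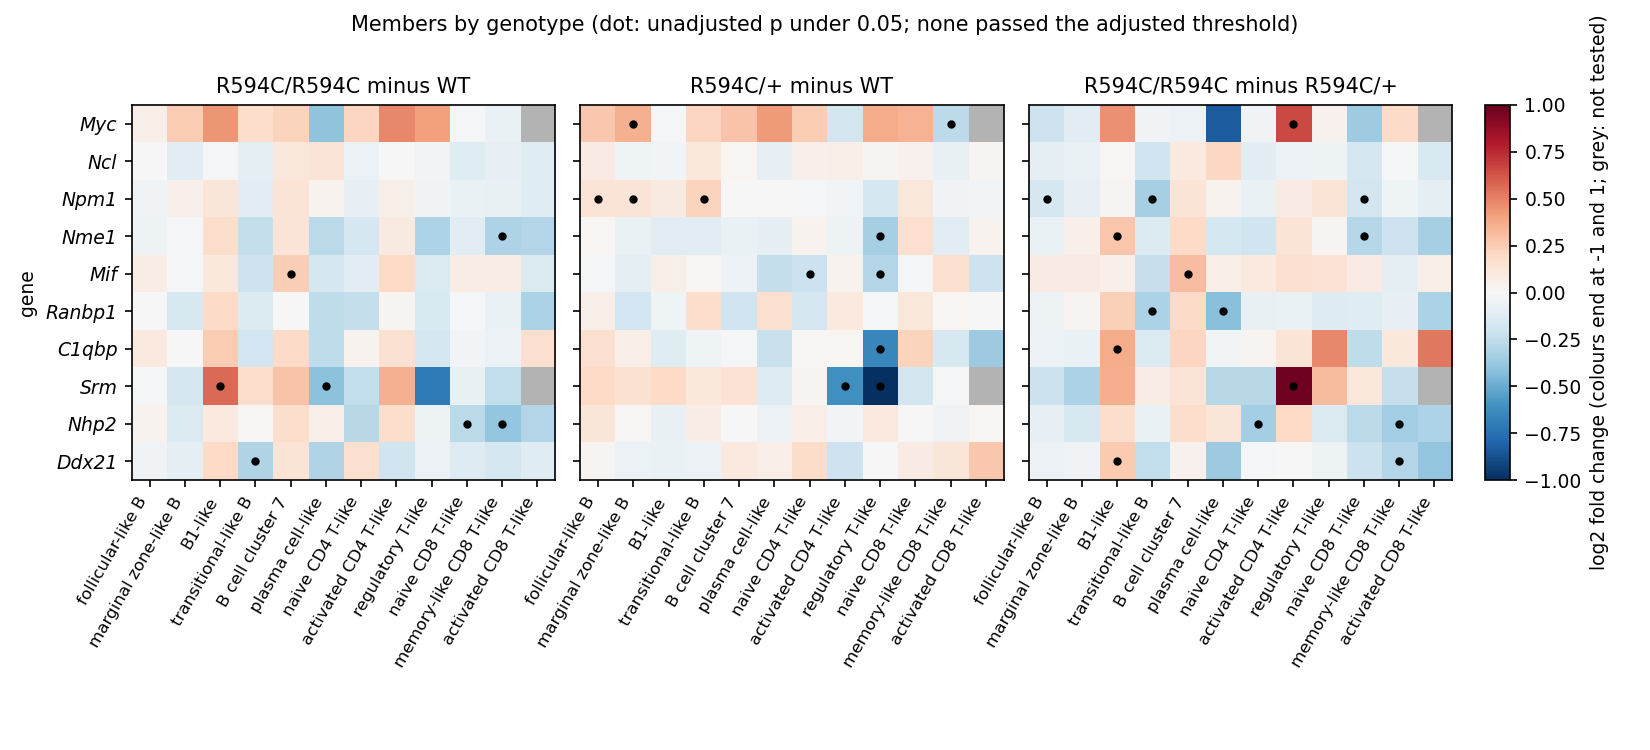
Log2 fold of each member (rows) in 12 classes (columns) for the 3 pairs of genotypes (panels), with colours ending at -1 and 1, grey for genes not tested and dots for an unadjusted p under 0.05. The panels hold 7, 11 and 15 dots, and nothing passed the adjusted threshold of 0.05.

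Npm1 came nearest to the threshold. In follicular-like B cells it had 942 and 930.1 CPM in R594C/R594C, 1038, 1053, 1037 and 1034 CPM in R594C/+ and 992, 982, 934 and 942 CPM in WT. The R594C/+ replicates were above all others, and the R594C/R594C and WT ranges overlapped. The log2 fold was 0.14 ± 0.04 in R594C/+ minus WT (95% interval 0.05 to 0.23, adjusted p = 0.31) and -0.17 ± 0.05 in R594C/R594C minus R594C/+ (adjusted p = 0.25). The shares of the 3 follicular-like clusters in the class varied between replicates, with ranges that overlapped between genotypes, and were not tested. The first cluster held 37.7% of cells in both R594C/R594C replicates, 26.0% to 40.9% in R594C/+ and 37.4% to 50.2% in WT. Medians in the same order were 30.5%, 31.9% and 30.1% for the second cluster and 31.9%, 32.7% and 30.8% for the third. The R594C/+ mean of Npm1 was the highest of the genotypes in each cluster, at 925, 1168 and 1041 CPM in order. WT means were 878, 1085 and 992 CPM, and R594C/R594C means were 859.5, 1080 and 910 CPM. Within each of the 3 clusters the R594C/+ range of Npm1 overlapped the WT range. In the first cluster it ran from 827 to 992 CPM in R594C/+ and from 803 to 942 CPM in WT, in the second from 1129 to 1240.0 and from 1028 to 1138 CPM, and in the third from 983 to 1103 and from 931 to 1110.0 CPM in the same order. In transitional-like B cells Npm1 had 894 and 916 CPM in R594C/R594C, 1099, 1158, 999.8 and 1160.0 CPM in R594C/+ and 946, 978, 1032 and 893 CPM in WT. The R594C/R594C values lay below all R594C/+ values, at -0.33 ± 0.09 (adjusted p = 0.15, and 0.059 to 0.79 over the alternatives). In marginal zone-like B cells it had 1395 and 1305 CPM in R594C/R594C, 1436, 1396, 1445 and 1411 CPM in R594C/+ and 1310.0, 1395, 1322 and 1342 CPM in WT, with R594C/+ again above WT in every replicate.

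Other transcripts moved with these captures. The summed ribosomal protein genes of follicular-like cells ran from 89160 to 89260 CPM in R594C/R594C, from 90200 to 92530 CPM in R594C/+ and from 85720 to 88390 CPM in WT. Of 288 ribosomal protein gene tests 13 rose and none fell in R594C/R594C minus WT, 16 rose and 2 fell in R594C/+ minus WT, and 4 rose and none fell in R594C/R594C minus R594C/+. Neutrophil genes, which B cells should lack, summed to 94.1 to 94.9 CPM in R594C/R594C, 176 to 184 CPM in R594C/+ and 39.98 to 53.8 CPM in WT follicular-like cells, with 31 of 39 tests higher in R594C/+ minus WT. Erythroid genes summed to 286 to 301 CPM in R594C/R594C, 249.9 to 291 CPM in R594C/+ and 101 to 115 CPM in WT. The part of these in the Npm1 values was not tested.

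Myc by genotype was spread widely. In marginal zone-like B cells it had 736 and 527 CPM in R594C/R594C, 602, 653, 694 and 743 CPM in R594C/+ and 458, 496, 666 and 557 CPM in WT. The ranges overlapped, with the lowest WT replicates below all others. R594C/+ minus WT was 0.35 ± 0.15 (unadjusted p = 0.050, adjusted p = 0.64), and without the filter on low counts its adjusted p was 0.0030, the only member call under any alternative. All 4 R594C/+ replicates were female and 3 of 4 WT replicates male by expressed genes, and with expressed sex as a term the difference was 0.57 (adjusted p = 0.40). In follicular-like B cells Myc had 269 and 219 CPM in R594C/R594C, 263, 281, 231 and 335 CPM in R594C/+ and 179, 207, 292 and 263 CPM in WT, all overlapping. The median log2 fold of Myc over 11 classes was 0.22 in R594C/R594C minus WT and 0.27 in R594C/+ minus WT, higher in 8 of 11 classes each, and both share the WT replicates. Immediate early and heat shock genes were higher in 180 of 236 tests in R594C/R594C minus WT, with none called, and in 182 of 236 in R594C/+ minus WT, with 4 called higher. Their part in the Myc values was not tested. Within the 3 follicular-like clusters the Myc ranges of the genotypes overlapped. In regulatory T-like cells the R594C/R594C replicates stood at 112 and 32.8 CPM, further apart than the R594C/+ (54.6 to 77.5) or WT replicates (40.5 to 67.3).

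**Figure D5:**
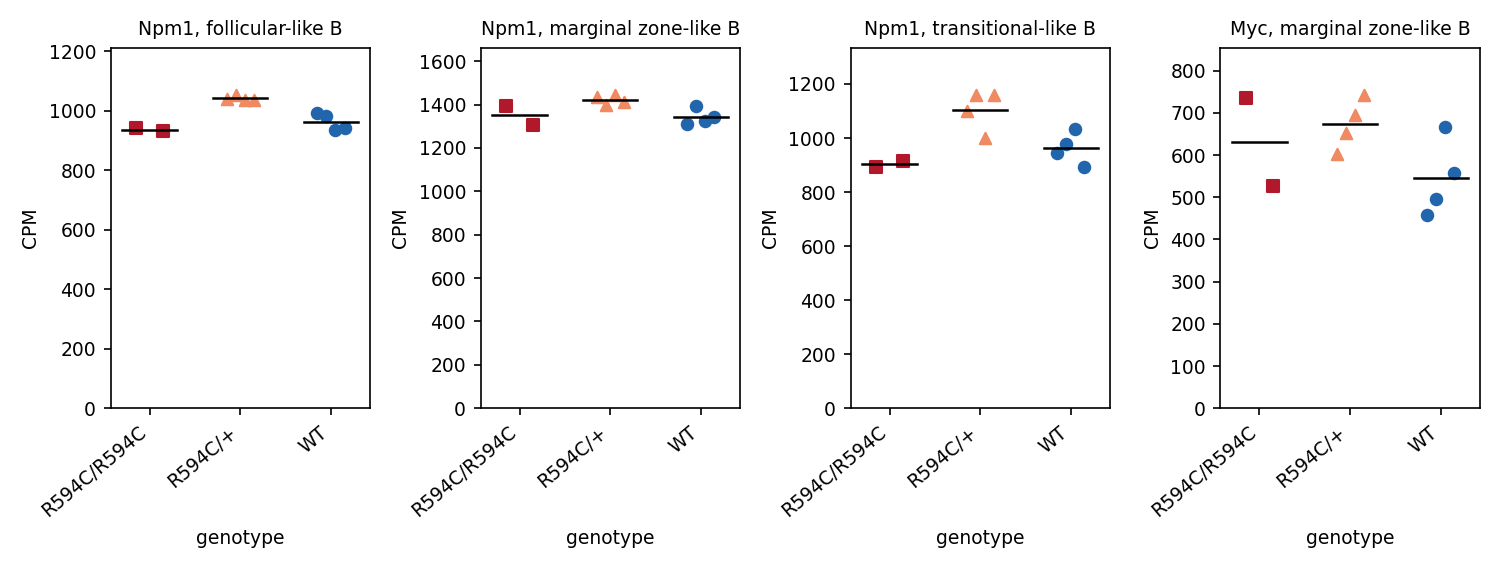
Npm1 in 3 B cell classes and Myc in marginal zone-like B cells in CPM (vertical axes, from 0), 1 point per replicate with lines at the mean, by genotype (across). Npm1 of R594C/+ lies at 1034 to 1053 CPM in follicular-like cells, above the other genotypes, and the Myc ranges overlap.

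In B1-like cells 6 members had both R594C/R594C replicates above all 4 R594C/+ ones: Myc, Nme1, Ranbp1, C1qbp, Srm and Ddx21. Of all genes tested in this class 10.5% had both R594C/R594C replicates above in this way. Myc had 192 and 193 CPM in R594C/R594C and 130, 120, 151 and 154 CPM in R594C/+ replicates. WT replicates covered both, at 111, 165, 226 and 90.1 CPM. Srm had 59.4 and 54.6 CPM in R594C/R594C, 40.2, 45.8, 46.5 and 44.5 CPM in R594C/+ and 27.8, 44.5, 67.3 and 24.2 CPM in WT. None of these passed the adjusted threshold. In cluster 7 Mif had 527 to 569 CPM in R594C/R594C, 386 to 482 CPM in R594C/+ and 438 to 522 CPM in WT, with R594C/R594C minus R594C/+ at 0.31. Whether a genotype difference itself differed between classes was tested as an interaction against follicular-like B cells in 4 class pairs. A single genotype difference was tested per gene and class pair, and its folds lie nearest R594C/R594C minus WT. The other pairs of genotypes were not tested in this way. Of 40 member tests none passed (background 0.0531%), 2 had an unadjusted p under 0.05, and the lowest adjusted p was 0.69, for Srm in B1-like cells (0.60 ± 0.27).

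Reads of close relatives may be shared with 2 members. The neighbour Nme2 of Nme1 held 14.2 CPM over all classes against 235 CPM for Nme1, and the processed copy Mif-ps held 209 UMIs against 33620 for Mif, so values of Nme1 and Mif are uncertain where reads could not be told apart.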

How the data were processed

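For 3 captures the authors deposited raw UMI counts of genes, antibodies and hashtags per barcode. Per the file headers, these counts came from Cell Ranger 5.0.0. Cell Ranger, STAR, Seurat 3.1.4 and mm10 are named in the submitters' processing notes without their roles. A barcode needed 200 genes or more and a mitochondrial share of 10% or less. HTODemux of Seurat 5.3.0 (quantile 0.99) called the hashtags, and cells scored as doublets were removed (9.99% of single cells in R594C/R594C, 4.16% in R594C/+, 3.39% in WT). Cells were clustered with scanpy 1.11.5 and leidenalg 0.10.2 on 2000 variable genes, 30 components and 20 neighbours at resolution 1.5, which gave 42 clusters, 6 of them of 1 cell, and were named from marker lists. Counts were summed per replicate and class and tested with edgeR 4.0.16 (robust quasi-likelihood, TMM, filterByExpr with a minimum count of 10, R 4.3.3), with DESeq2 1.42.0, no filter, thinned cells, other hashtag rules, expressed sex as a term and left-out replicates as alternatives. An alternative with classes gated on antibody tags is not reported here. The tests were tried on simulated counts. Same-number replicates of different genotypes were not treated as pairs: of 8 pairs, 3 correlated above 0.1 (from -0.12 to 0.66). With 2 R594C/R594C replicates the values mirror each other, at -0.655 and 0.655 with WT replicate 2. The check therefore cannot decide whether replicates pair. Promoters and gene positions came from RefSeq (GRCm38.p6). The members, gene lists, markers and tests were chosen with earlier results of these data known. Named genes were the members, up to 4 called genes per list, direction and comparison with the largest fold, and the 5 genes most like Myc or the other members.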

Additional observations from a re-analysis of the deposited data

Results flagged for a closer look

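Of 290 groups of 4 replicates examined, 15 had a highest or lowest replicate far from the other 3 by Dixon's test at the 95% level, close to the 1 in 20 that chance gives. None is read as more than a value. In R594C/+, C1qbp stood at 75.3 CPM in replicate 2 of follicular-like B cells (others 87.95 to 90.4), Mif at 207 CPM in replicate 3 of B1-like cells (271 to 281), Ddx21 at 188 CPM in replicate 1 of naive CD4 T-like cells (164 to 167), Nme1 at 202 CPM in replicate 1 of regulatory T-like cells (182 to 183) and Npm1 at 1891 CPM in replicate 3 of naive CD8 T-like cells (2043 to 2071). In WT, Ranbp1 stood at 125 CPM in replicate 4 of follicular-like B cells (146 to 150), at 183 CPM in replicate 1 of transitional-like B cells (123 to 133) and at 261 CPM in replicate 1 of cluster 7 (361 to 374). C1qbp stood at 123 CPM in WT replicate 4 of marginal zone-like B cells (103 to 105) and at 89.8 CPM in WT replicate 1 of activated CD4 T-like cells (61.6 to 64.5). Mif stood at 522 CPM in WT replicate 3 of cluster 7 (438 to 443) and at 197 CPM in WT replicate 1 of activated CD8 T-like cells (290.3 to 301). In neutrophil-like cells Npm1 was at 0 CPM in R594C/+ replicate 4 (133 to 155), and C1qbp at 18.9 CPM in R594C/+ replicate 3 and Myc at 17.0 CPM in WT replicate 4 rested on 1 UMI each, with the others at 0.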

How the results depend on the processing

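Of 86 called member differences between classes, 80 kept their call and direction when each replicate was left out in turn, and the other 6 are given in the report. Counts of members moved as follows. Without a filter on low counts, 1 member (Myc, marginal zone-like) was called in R594C/+ minus WT and 1 rise was left in transitional-like minus follicular-like B cells (1 to 3 on leaving out replicates). In B1-like cells 1 fall was left with DESeq2, 1 without cycling cells and 1 to 2 on leaving out replicates. With cells thinned, 5 members rose in germinal centre-like, 2 in plasma cell-like and 3 in naive CD4 T-like minus follicular-like cells. Thinning turned Ncl in germinal centre-like cells (-0.28) and Mif (-0.23) and Ranbp1 (-0.032) in plasma cell-like cells. The causes of these changes were not tested. Spearman likeness kept 1 and 2 of the 5 named genes. Counts of all genes called moved over 1.5 times in R594C/R594C minus WT (116; no filter 280), R594C/+ minus WT (222; DESeq2 146, no filter 367, replicate block by hashtag number 342, thinned 119) and R594C/R594C minus R594C/+ (184; DESeq2 121, no filter 407, expressed sex 290, thinned 121; 95 to 220 on leaving out replicates, with 95 without R594C/R594C replicate 1, and 116 and 105 without R594C/+ replicates 1 and 2). The replicate block changed no member call by genotype. Germinal centre-like cells without cycling cells could not be run. Plasma cell-like Myc rested on 3 to 25 UMIs per replicate, out of 890528 to 2472234 UMIs of all genes.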

Other observations

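RNA polymerase I transcribes ribosomal RNA in the nucleolus, and 15 of its genes and factors were followed. In marginal zone-like minus follicular-like B cells 7 rose and 2 fell (edgeR, adjusted p under 0.05; 48.7% of all genes called), with Polr1e at 0.59 ± 0.15 and Cd3eap at 0.51 ± 0.13 on the log2 scale. In germinal centre-like minus follicular-like cells 8 rose and 1 fell (66.2% of all genes called), with the subunits Polr1d at 1.11 ± 0.07 and Polr1c at 0.81 ± 0.14, and with the initiation factor Rrn3 at -0.51 ± 0.16. In plasma cell-like minus follicular-like cells 1 rose and 6 fell (73.7% of all genes called), with Tcof1, which works in ribosomal RNA transcription, at -0.69 ± 0.10. In B1-like minus follicular-like cells 3 rose and 3 fell (53.2% of all genes called).

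Other polyamine enzymes parted naive T-like from follicular-like B cells. Amd1, which makes the aminopropyl donor that SRM uses, rose by 1.51 ± 0.08 in naive CD4 and by 1.75 ± 0.07 in naive CD8 minus follicular-like cells. Smox, which oxidises spermine, rose by 3.99 ± 0.37 and by 3.59 ± 0.38 in the same comparisons. In activated CD4 and in regulatory minus naive CD4 T-like cells Amd1 fell by 1.04 ± 0.11 and by 1.05 ± 0.13.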
